A study of Homo sapiens with 2 samples.

Results

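A set of 5 genes for proteins that handle messenger RNA (mRNA) or monitor ribosomes in the cytoplasm was examined. The data were a list of peaks from RNA immunoprecipitation followed by sequencing (RIP-seq). The genes were YBX1, YBX3, PABPC4, SERBP1 and ZNF598, and each had 1 peak, so 5 of 236 listed peaks are described. The genes were selected on the protein's role among genes with a listed peak, and their read counts were already known when they were chosen by that role. Their levels are therefore given as a description, with no test.

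The libraries came from ARP1 cells, a line established from human multiple myeloma. One library held RNA recovered with an anti-SFRS8 antibody (the IP library), and the other held input RNA for which no antibody was used (the control library). SFRS8, also called SFSWAP, regulates the splicing of pre-mRNA. Neither label gives a drug treatment or a genetic change, and the protocol text also mentions an antibody against N6-methyladenosine, whose use on these libraries is unclear. With 1 library per group there is no replicate check, and all intervals below cover counting error only.

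Y-box proteins carry a cold-shock domain and coat mRNA in the cytoplasm, where they influence translation and stability. PABPC4 belongs to the cytoplasmic poly(A)-binding proteins, which sit on mRNA tails. SERBP1 binds mRNA and is known to occupy ribosomes that are not translating. ZNF598 is a ubiquitin ligase that marks ribosomes that have collided, the first step of a quality-control pathway. The peaks report RNA of these genes in the libraries. They do not report what the proteins bind.

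The list was checked against this description of the genes. In the functional annotation of the deposited list, "RNA binding" was given for YBX1, YBX3, PABPC4 and SERBP1, 4 of the 82 genes that carry that term. The narrower term "mRNA binding" was given for YBX3, PABPC4 and SERBP1, 3 of 15 genes. "Cytosol" was listed for the same genes as "RNA binding" and "nucleus" for those 4 as well, so the genes are not annotated as cytoplasmic alone. Of the 199 annotated genes, 96 carried "cytosol" and 130 carried "nucleus". "Cytoplasmic stress granule" was listed for 3 genes, YBX1, PABPC4 and ATXN2L. ZNF598 carried "nucleic acid binding", as did 107 of the 199 genes in all, and no cellular component.

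The read counts split the 5 genes into a pair with more IP than control reads and 3 with far fewer. ZNF598 had 16 IP and 2 control reads, and SERBP1 had 29 and 6. YBX3 had 11 and 119, PABPC4 had 71 and 1216, and YBX1 had 27 and 626. Over the whole list, the median peak had 21.5 IP and 145 control reads. PABPC4 and YBX1 were thus above that median in both libraries and SERBP1 only in the IP library, whereas YBX3 and ZNF598 were below it in both.

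**Figure D1:**
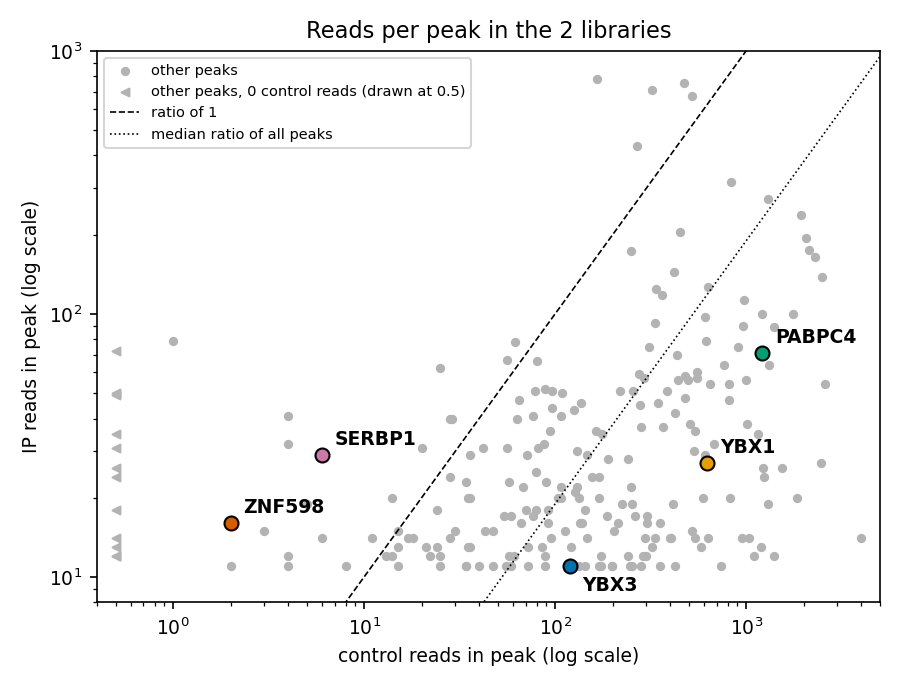
IP reads (vertical axis, log scale) against control reads (horizontal axis, log scale) for each of the 236 peaks, with the 5 genes coloured and labelled. ZNF598 (16 and 2 reads) and SERBP1 (29 and 6) lie above the dashed line of equal reads, and YBX3, PABPC4 and YBX1 lie below the dotted line of the median ratio, 0.190.

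The depth of the libraries was not determined here, so the quotient of IP over control reads, called the ratio, has meaning only between peaks. A ratio under 1 does not mean depletion. Which library a column of the list belongs to is not stated in its header. The plain count was taken as IP and the one prefixed CTL as control, and exchanging them would turn every order by the ratio. ZNF598 and SERBP1 would then rank 220 and 217 of 236, YBX3 76, PABPC4 51 and YBX1 32, and 83.5% of peaks would have more reads in the library called IP. Ranks by the authors' score, given further on, do not rest on that reading of the counts.

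IP reads outnumbered control reads in 2 of the 5 peaks, against 16.1% of all peaks. The ratio's exact interval was wholly above 1 at the same 2 peaks, ZNF598 and SERBP1, against 11.4% of all peaks, and wholly below 1 for the other 3, against 76.3%. Nothing is read from these shares, because the genes were grouped with the counts known. The median ratio of the 5 genes was 0.0924, against 0.190 over all peaks and 0.164 over the 186 named protein-coding genes with a peak, each taken at its strongest peak. With at least 20 IP reads required, 3 genes were left, with a median of 0.0584. The median over all peaks under that limit is not given here, so this value has no like comparison. Together the 5 peaks held 154 IP reads, 1.28% of IP reads in peaks, and 1969 control reads, 2.26% of control reads in peaks.

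Among the genes tied to ribosomes, ZNF598 (ENSG00000167962) had the highest ratio of the 5. Its peak covered 3010 bases on the minus strand of chromosome 16 (GRCh38), chr16:1999501-2002510, and lay wholly inside the gene. The ratio was 8 (95% interval 1.88 to 71.7), which is 42.2 times the median of all peaks and the rank of 9 among 236. The wide interval comes from the 2 control reads. Coverage was low in both libraries, at 5.32 IP and 0.664 control reads per kb of peak, so the peak stands on few reads spread over a long stretch. The rank was 3 without the peaks of the ribosomal RNA interval of chromosome 21, and 16 with 0.5 reads added to both counts. Peaks with 0 control reads were divided by a floor of 3, whereas ZNF598 was divided by its 2 reads. A peak with 18 IP and 0 control reads (ratio 6) thus stood below it, so the rank of 9 depends on this floor.

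SERBP1 (ENSG00000142864) had a short peak of 440 bases on the minus strand of chromosome 1, chr1:67429781-67430220. The ratio was 4.83 (1.97 to 14.2), 25.5 times the median of all peaks and the rank of 16. That rank was 8 without the chromosome 21 interval and 20 with 0.5 reads added to both counts. Its IP reads were the densest of the 5 genes, at 65.9 per kb of peak, against 13.6 control reads per kb. The peak of SERBP1 was the one nearest to a gene start among the 5, and its upstream sequence is printed for that reason. The 280 bases below are from RefSeq (GRCh38.p14), minus strand, chr1:67430373-67430652. They hold 250 bases before the RefSeq start in lower case and the first 30 bases of the gene in capitals.

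SERBP1 start: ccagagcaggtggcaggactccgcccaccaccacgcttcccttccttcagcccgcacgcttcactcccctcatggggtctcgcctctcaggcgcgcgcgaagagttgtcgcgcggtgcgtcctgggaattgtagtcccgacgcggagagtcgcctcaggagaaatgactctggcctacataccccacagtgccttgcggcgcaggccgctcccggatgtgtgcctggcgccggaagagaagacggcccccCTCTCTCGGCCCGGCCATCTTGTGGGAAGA

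The peak itself begins 182 bases downstream of that RefSeq start, past the 300-base window of the table by 132 bases, and its own letters were not used here. The share of G or C was measured over the full window of 300 bases, not over the 280 printed. It was 66.3%, against a median of 58.7% over 35116 such windows, and 70.5% of the windows had a lower share. Windows were listed for 4 of the 5 genes. Those of YBX1, YBX3 and ZNF598 lay 14283, 23583 and 7261 bases from the gene's peak, so none of these 4 peaks reached its window.

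The Y-box genes were both low in the order. YBX3 (ENSG00000060138) had a peak of 215 bases on the minus strand of chromosome 12, chr12:10699476-10699690, with a ratio of 0.0924 (0.0449 to 0.171) and the rank of 161. Its 11 IP reads equal the fewest of any listed peak, a number shared by 28 peaks. Control reads were dense there, at 553 per kb, against 51.2 IP reads per kb. YBX1 (ENSG00000065978), the founding member of the family, had a peak of 7500 bases on the plus strand of chromosome 1, chr1:42696751-42704250. The ratio was 0.0431 (0.0282 to 0.0634), the rank was 205, and control coverage was 83.5 reads per kb. IP coverage was 3.6 reads per kb, the lowest of the 5 genes and below that of ZNF598.

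PABPC4 (ENSG00000090621) held the most reads of the 5 in both libraries. Its peak covered 2860 bases on the minus strand of chromosome 1, chr1:39567221-39570080. The ratio was 0.0584 (0.0453 to 0.0742), the narrowest interval among the 5, and the rank was 186. By control reads the peak ranked 19 of 236, and by IP reads 32. PABPC4 therefore had many IP reads together with a low ratio. Per kb of peak its IP reads were 24.8, fewer than at SERBP1 (65.9) and YBX3 (51.2).

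The RNA counted under PABPC4 cannot be given to the mRNA alone. The peak contains the whole gene of SNORA55, a small nucleolar RNA (snoRNA) of 137 bases at 39567374 to 39567510. It also lies wholly within the span of PABPC4-AS1, a long non-coding gene named as antisense to PABPC4. The strand of PABPC4-AS1 was not compared with that of the peak here, and whether its RNA adds to these counts was not tested. By RefSeq, no other gene overlapped the peaks of the other 4 genes. A whole snoRNA gene lay inside 13 of the 236 peaks, with a median ratio of 0.0667, and the median was 0.196 over the 223 peaks without one. None of those 13 peaks had more IP than control reads, against 38 of the 223. The 13 peaks also had more reads and were wider. Their medians were 998 control reads, 54 IP reads and 3780 bases, against 134, 20 and 1845 for the 223. Whether the snoRNA genes have a part in the lower ratio was not tested. The part of SNORA55 in the PABPC4 counts was not tested.

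**Figure D2:**
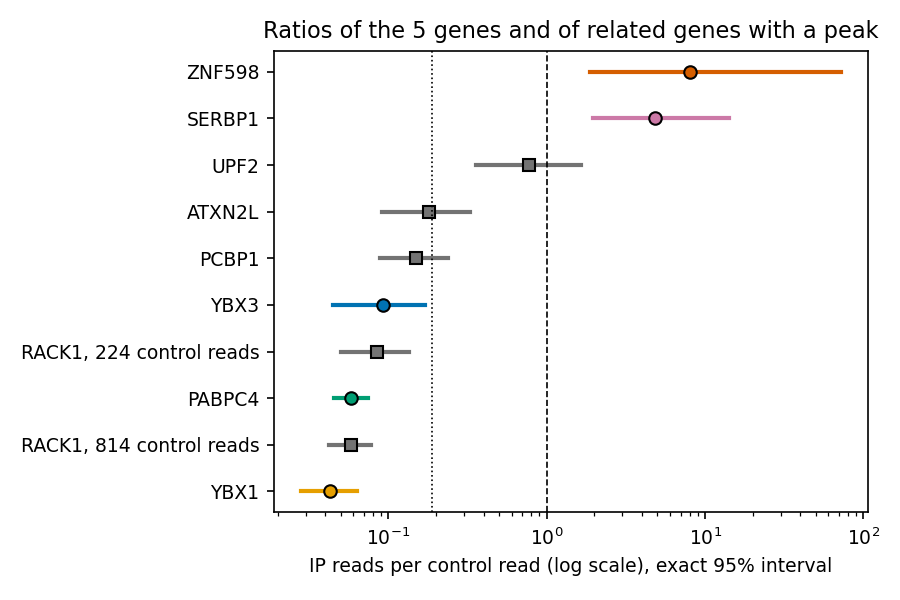
IP reads per control read (log scale) with exact 95% intervals for the 5 genes (circles) and for related genes with a peak (squares, RACK1 with both of its peaks). The dashed line marks a ratio of 1 and the dotted line the median of all peaks, 0.190. The intervals of ZNF598 and SERBP1 lie to the right of 1, and those of YBX3, PABPC4 and YBX1 lie to the left of the dotted line.

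Within each group, neighbours in the order were not separable by counting error. The quotient of 2 genes' ratios does not depend on library depth, and 4 such pairs were compared by exact conditional 95% intervals. ZNF598 stood at 1.66 times SERBP1, with an interval of 0.253 to 18.5 that includes 1. YBX3 stood at 1.58 times PABPC4 (0.735 to 3.11) and PABPC4 at 1.35 times YBX1 (0.848 to 2.22), both with intervals that include 1. YBX3 stood at 2.14 times its paralog YBX1 (0.932 to 4.61), again with an interval that includes 1. The gap between SERBP1 and YBX3 is where the groups were drawn, so no interval is given for it.

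The high ratios of ZNF598 and SERBP1 stand beside very few control reads. No listed peak had fewer than 11 IP reads, so a listed peak with 2 control reads has a ratio of at least 5.5, and one with 6 control reads of at least 1.83. All 24 peaks with 6 or fewer control reads, 12 of them with 0, therefore had more IP than control reads. The list does not show stretches with fewer IP reads, and the part of this limit in the order was not tested.

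Set against peaks with similar control reads, the 5 genes spread from high to lowest. For SERBP1, the 9 other peaks within 2-fold of its control reads had 11 to 41 IP reads with a median of 14, and 2 of them exceeded its 29 reads. For ZNF598, the 8 such peaks had 11 to 79 IP reads with a median of 15.5, and 3 exceeded its 16 reads. SERBP1 was thus near the top of its set, whereas ZNF598 lay close to the middle of its own. Among 37 peaks near PABPC4 the median was 54 IP reads, and 14 exceeded its 71 reads. Among 61 peaks near YBX1 the median was 46, and 40 exceeded its 27 reads. Among 68 peaks near YBX3 the median was 20. Of these, 58 had more than its 11 reads, 10 had the same number and none had fewer, since 11 is the lowest count in the list. PABPC4, low by its ratio, was thus above the median of its set.

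The peaks lay at different places along their genes, measured over the gene span of the list with introns included. The SERBP1 peak was centred at 1.83% of the gene length from the 5′ end and began 195 bases inside the gene. Among 187 peaks centred inside a named protein-coding gene, 7 were centred in the first 10% of the gene and 57 in the last 10%. The SERBP1 peak was the only one of those 7 with more IP than control reads. The same held for 5 of the 57 peaks in the last 10% and for 14 of 123 peaks between. Of the 13 such peaks that began within 500 bases of the gene start, SERBP1 and H1FX, a linker histone gene (41 IP and 4 control reads), had more IP than control reads. Over all peaks the share was 16.1%, and nothing about gene starts is read from these counts. The other 11 had ratios from 0.0561 (RPS2) to 0.825 (TUFM). Some of these genes are short, so a peak near the start can also cover the rest of the gene, whereas the SERBP1 peak spans 1.95% of its gene. A short peak near a start did not always have a high ratio. CROCC had one of 250 bases, 478 bases inside the gene, with 11 IP and 122 control reads (0.0902).

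The other genes had peaks in the middle or towards the 3′ end. PABPC4 was centred at 51.0% of the gene length, and ZNF598 at 72.5%, with 1847 bases between its peak and the gene end. The Y-box peaks were the most 3′ of the 5. YBX3 was centred at 98.0%, 387 bases short of the end of the gene. YBX1 was centred at 90.7%, and its peak ran 1901 bases past the gene end given in the list. The RefSeq gene ends later, and the YBX1 peak ran 445 bases past that end. Of its 7500 bases, 5599 (74.7%) lay in the gene as the list defines it.

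**Figure D3:**
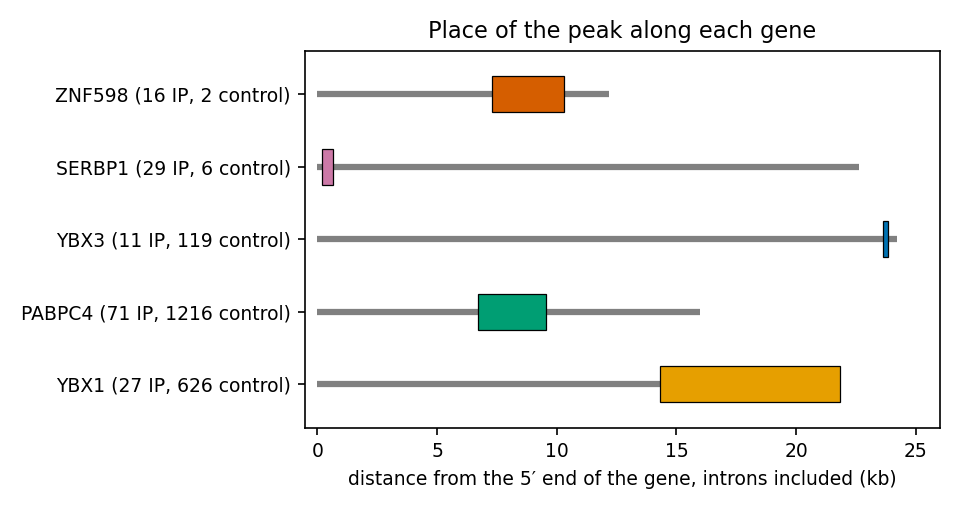
Place of each peak (coloured box) along its gene (grey line), drawn to scale in kb from the 5′ end with introns included, in the order of the ratio from highest to lowest. The SERBP1 peak lies at the 5′ end, 195 bases inside the gene, the YBX3 peak lies 387 bases before the 3′ end, and the YBX1 peak runs past the 3′ end.

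Peak edges fell on a regular grid that differed between chromosome strands, which limits how finely a place is known. On the minus strand of chromosome 1, with 13 peaks, the largest step that divides all starts and widths was 220 bases. The SERBP1 peak was 2 such steps wide and the PABPC4 peak 13. The step was 215 bases on the minus strands of chromosomes 12 and 16, where YBX3 was 1 step wide and ZNF598 14. On the plus strand of chromosome 1 it was 250 bases, and YBX1 was 30 steps wide. YBX3 was therefore listed at the smallest width possible on its strand, and its place is known to no better than that step.

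A small number of related genes were in the list. Of 108 genes on the lists of Y-box and cold-shock proteins, poly(A)-binding proteins and tail partners, SERBP1 relatives and dormant-ribosome factors, ribosome quality control, and other cytoplasmic mRNA-binding proteins, 9 had a peak, the 5 genes among them. By list these were 2 of 7, 1 of 17, 1 of 6, 2 of 32 and 3 of 46. Without the 5 genes, which were chosen for having a peak, 4 of 103 (3.88%) had one, against 183 of 20056 protein-coding RefSeq symbols (0.912%). The lists themselves were chosen with earlier results of these data known, so leaving out the 5 genes does not make the shares free of selection. This difference was not tested, and how strongly the genes without a peak are expressed was not measured here.

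The other 4 related genes had ratios between those of the 2 groups or close to the lower one. RACK1, a scaffold protein of the small ribosomal subunit needed for responses to collisions, had 19 IP and 224 control reads in one peak (0.0848, 0.0501 to 0.136) and 47 and 814 in the other (0.0577, 0.0421 to 0.0775). Both lay far below ZNF598, the other quality-control gene with a peak. UPF2, a factor of nonsense-mediated decay, had 14 and 18 reads (0.778, 0.358 to 1.66). Its peak was centred at 6.47% of the gene length but, unlike that of SERBP1, did not begin within 500 bases of the gene start. PCBP1, a poly(C)-binding protein, had 20 and 134 reads (0.149, 0.0883 to 0.240). ATXN2L, a stress granule protein, had 13 and 72 reads (0.181, 0.0917 to 0.329). Of these 4 genes only UPF2 lay above the median of all peaks.

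Translation factors and ribosomal proteins were the gene groups closest in role. The strongest peaks of 6 translation factor genes had a median ratio of 0.638 (0.160 to 5 from lowest to highest), and 1 of the 6, EIF1AX, had more IP than control reads. Those of 22 ribosomal protein genes had a median of 0.0614 (0.00856 to 0.380), and none had more IP than control reads. By value, YBX1 and PABPC4 lay below the median of the ribosomal protein genes and YBX3 lay above it, within their range, while ZNF598 lay above all 6 translation factor genes. These are descriptions of single libraries, and no difference between the groups was tested.

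The genes next to each of the 5 in the order by ratio were of mixed kinds. ZNF598 was tied with AFAP1L2 (16 IP and 2 control reads) and ARHGAP4 (32 and 4), with H1FX next above by 0.36 in log2 of the ratio and MYBBP1A next below by 0.54. SERBP1 stood 0.05 below EIF1AX (15 and 3 reads) and 0.16 above LRRC59 (13 and 0 reads, computed against a floor of 3 control reads). YBX3 stood between ACTG1 (90 and 958 reads) and CTDSP2 (11 and 120), PABPC4 between ITM2B (11 and 173) and XBP1 (100 and 1760), and YBX1 between MLEC (11 and 253) and PFN1 (14 and 334). Likeness over 2 libraries says only that the ratio was close.

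The authors' deposited table orders the 5 peaks differently. By its log-odds score YBX3 came first of the 5, with 547 and the rank of 9 among 236, and ZNF598 came last, with 14.4 and the rank of 233. In the authors' deposited table PABPC4 scored 122 (rank 75), SERBP1 88.3 (rank 107) and YBX1 76.2 (rank 122), against a median of 79.1 over all peaks. The control score in the authors' deposited table was below 0 for all 5 genes, from -496 for YBX3 to -3.16 for ZNF598, as for 228 of 236 peaks. YBX3 and PABPC4 thus scored highest of the 5 although the control library held more reads in their peaks. The way the score weighs control reads is not stated in the labels or the list.

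The p-values in the authors' deposited table gave the same order apart from a tie at the top. They were listed as 0 for YBX3 and PABPC4, as for 62 peaks in all. The authors' deposited table gives 6.98e-205 for SERBP1, 2.07e-61 for YBX1 and 3.41e-05 for ZNF598. ZNF598 also had an empirical false discovery rate of 0.0182 in the authors' deposited table, against a highest value of 0.0476 for any peak. Its peak was thus near the weak end of the deposited list by these measures and near the top by the ratio.

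**Figure D4:**
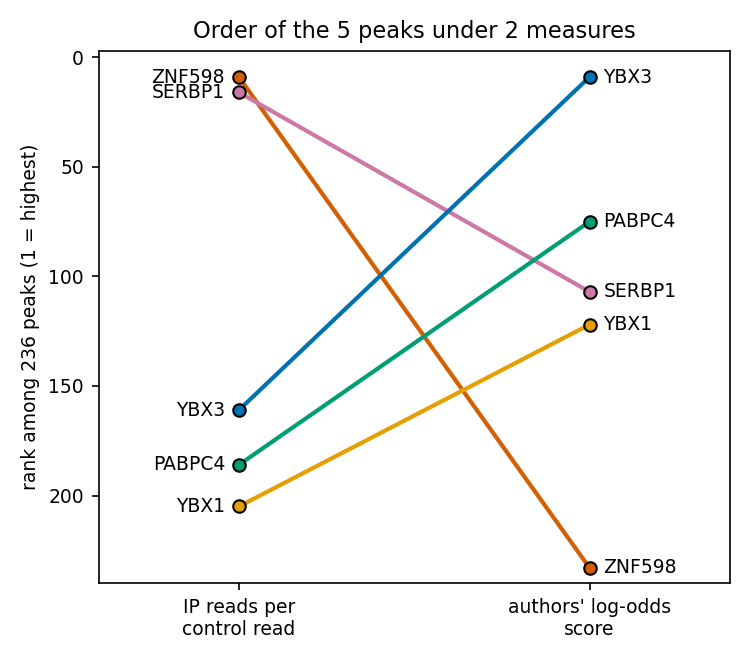
Rank of each of the 5 peaks among 236 (vertical axis, 1 is highest) by IP reads per control read (left) and by the authors' deposited log-odds score (right). ZNF598 moves from 9 to 233 and YBX3 from 161 to 9.

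Near-identical sequence elsewhere in the genome can take or give reads for some of these genes. RefSeq lists 10 numbered pseudogenes of YBX1, 6 of SERBP1 and 1 of YBX3, and none of PABPC4 and ZNF598 under their own names. How reads that match several places were counted is not stated in the labels or the list, so the counts of YBX1 and SERBP1 are uncertain in this respect. The part of such reads was not tested.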

How the data were processed

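The deposited peak list was used, with 279 rows for 236 distinct peaks. The submitters' processing notes name FastQC 0.11.5, HOMER and the build GRCh38. For the aligner, the peak caller and the rules of counting, the tool is not given in the sources used here. Counts are the authors' whole reads per peak, not normalized, as deposited. The log-odds scores, p-values and empirical false discovery rates are the authors' deposited values, used only to describe and rank peaks. Another 2 columns of values per library were not used. Peaks held 12068 IP and 87259 control reads. Library totals were not used here, so precision is given by exact Clopper-Pearson 95% intervals of the split of reads. Without molecular identifiers, PCR copies cannot be told from separate molecules. With 0 control reads, the ratio used a floor of 3. All other peaks were divided by their own control reads, also where these were fewer than 3.

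A peak with several genes was counted once, under a named protein-coding gene where there was one. The 5 genes were matched by symbol, and 5 matched RefSeq. The genes and lists were chosen with earlier results of these data known. Named were the 5 genes, every listed relative with a peak, and the genes next in ratio. Others, such as RPS2, TUFM, H1FX and CROCC at gene starts, were chosen after their values were seen. Scripts ran in Python 3.11.15 with scipy 1.17.1 and were tested on simulated data.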

Additional observations from a re-analysis of the deposited data

How the results depend on the processing

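Of 31 alternative values for the 5 genes, 24 stayed within the counting interval of the main value, within the limits set for counts or, for the place in the gene, within the peak's reach on either side of its centre. Ordered by the authors' score in place of the ratio, the ranks became 233 for ZNF598, 107 for SERBP1, 9 for YBX3, 75 for PABPC4 and 122 for YBX1. The cause was not tested. Without the 15 peaks of the ribosomal RNA interval of chromosome 21, 221 peaks were left and the ranks became 3 for ZNF598, 8 for SERBP1, 146 for YBX3, 171 for PABPC4 and 190 for YBX1. For PABPC4 this lay outside the ranks its counting interval spans, because those peaks had all stood above it. With at least 20 IP reads per peak, ZNF598 and its 16 reads dropped out, as did YBX3. Then 1 gene (SERBP1) in place of 2 had more IP than control reads. The median ratio of the 3 genes left was 0.0584 in place of 0.0924. The share and median over all peaks under that limit are not given here, so these values have no like comparison. With 0.5 reads added to both counts, the ratio of ZNF598 was 6.6 and its rank 16, and SERBP1 ranked 20. The RefSeq gene span, chosen after the data were seen, moved the YBX1 centre to 84.5% of the gene length. The alternatives with deposited per-kilobase values and with exon positions were not run, because those columns and an exon annotation were not used here. No paired analysis was possible because each group had 1 library. Depth limits ZNF598 most, with 2 control reads.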
